A study of Mus musculus with 19 samples.

Results

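Early progenitor genes are genes that haematopoietic and early thymic progenitors express and that T cells turn down as they commit to the lineage. The 10 described here were Kit, Cpa3, Lyl1, Lmo2, Hhex, Bcl11a, Spi1, Mef2c, Gata2 and Flt3. They are 10 of 22180 genes measured on 19 arrays of sorted mouse thymocytes, and each was read from the probe set with the highest mean over all arrays. The group was chosen by the DN3a values of Cpa3 and Kit, which were lower without Rptor, so the DN3a genotype difference is given as a description with no test. Raptor, the product of Rptor, is the subunit that defines the growth-controlling kinase complex mTORC1.

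All mice were C57BL/6, and cells were sorted from thymus of WT animals and of animals from a cross of CD2-cre with Raptorfl/fl mice, labelled Rptor-/-. The CD2 promoter drives Cre in lymphoid cells, and the labels do not say whether WT animals carried Cre. DN3a cells were CD4-, CD8-, TCRγδ-, TCRβ-, CD25hi, CD44- and CD28- (3 WT and 3 Rptor-/- arrays). The γδ T cells were sorted as CD4-, CD8-, TCRβ-, NK1.1- and Gr1-, a gate in which the labels name no positive marker (3 and 3 arrays). Immature single-positive (ISP) cells, which follow on the αβ branch, were CD4-, CD8+ and TCRβ- (4 WT and 3 Rptor-/- arrays). The labels give neither ages nor the animal behind each replicate, so p-values cover only the spread among these samples, part of which may be technical.

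Kit is the receptor of stem cell factor and Flt3 the receptor of Flt3 ligand, both tyrosine kinases of early progenitors. Lyl1 is a basic helix-loop-helix factor that works with the adaptor Lmo2, while Hhex, Bcl11a, Mef2c, Gata2 and Spi1 (PU.1, an Ets factor) are transcription factors of progenitors and of myeloid, B or mast cells. Cpa3 encodes carboxypeptidase A3, a protease stored in mast cell granules and also expressed by progenitors. In the thymus these genes are known mainly from the stages before DN3.

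The results turn on Kit and Cpa3, and the sequences before their starts are shown because they hold different motifs. Both come from RefSeq on GRCm38.p6; Kit lies on chr5:75574987-75656722 and Cpa3 on chr3:20215616-20242209. The Kit sequence is chr5:75574737-75574986 on the plus strand and the Cpa3 sequence chr3:20242210-20242431 on the minus strand, both 5′ to 3′, outside the annotated genes. Capitals mark matches, on either strand, to any of 5 motifs. The letters searched were AGATAA for the factors named after GATA, then CANNTG for the E-box of helix-loop-helix factors, and CCGGAA for the core site of Ets factors. The PU.1 motif was searched as GAGGAA and, last, the Runx motif as TGTGGT.
Kit: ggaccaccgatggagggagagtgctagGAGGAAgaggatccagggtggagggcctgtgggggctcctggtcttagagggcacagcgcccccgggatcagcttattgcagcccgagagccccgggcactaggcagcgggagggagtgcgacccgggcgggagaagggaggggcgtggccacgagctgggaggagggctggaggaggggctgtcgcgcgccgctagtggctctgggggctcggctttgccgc
Cpa3: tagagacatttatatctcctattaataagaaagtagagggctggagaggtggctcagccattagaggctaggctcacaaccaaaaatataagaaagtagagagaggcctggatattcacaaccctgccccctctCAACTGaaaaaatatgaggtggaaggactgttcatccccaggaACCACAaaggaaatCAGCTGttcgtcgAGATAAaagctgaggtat
In the 250 bases searched before its start, Kit had 1 match, to the PU.1 motif at 223 to 218 bases before the start. Cpa3 had a GATA match at 46 to 41 bases, E-box matches at 116 to 111 and 59 to 54 bases, and a Runx match on the reverse strand at 73 to 68 bases. These Cpa3 positions are counted from the RefSeq start used, which lies beyond the end of the printed sequence: the 28 bases next to it fall within the annotated gene and are not printed. No match overlapped another in these sequences. Of 32851 RefSeq windows of this length, 9.99% held the GATA motif, 66.2% the E-box, 12.0% the Ets core, 23.3% the PU.1 motif and 14.0% the Runx motif. Windows were found for 8 of 10 members, all but Lmo2 and Spi1. Of these 8, 1 held the GATA motif, 5 the E-box, 1 the Ets core, 3 the PU.1 motif and 1 the Runx motif. A member counted if any of its windows matched, and Kit, Mef2c and Gata2 had more than 1. The percentages are per window, so the 2 measures are not alike. A match is a stretch of letters and does not show binding.

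Values are deposited log2 signals. The 7 ISP arrays had medians of 3.80 to 3.88 and the 12 DN3a and γδ arrays 6.03 to 6.13, so ISP levels are not set against those of the other cells. Rptor itself was lower in Rptor-/- cells, at 9.65 against 10.23 in DN3a, 9.47 against 9.77 in γδ T cells (limma adjusted p = 0.0489) and 6.20 against 6.44 in ISP cells (limma adjusted p = 0.0384); the place of its probe set relative to the deleted part was not examined. In WT γδ against WT DN3a cells, 9 of 10 measured γδ markers were higher and 8 of 10 DN3a markers lower, beside 12.7% and 12.3% of all genes. The other γδ marker, Il17rb, was lower in WT γδ cells (9.89 against 10.85). The DN3a markers include Il2ra, the gene of CD25, and DN3a cells were sorted as CD25hi. Cd8a was 11.33 in WT ISP cells, which were sorted as CD8+. No such comparison of populations was made for Rptor-/- cells. As these are bulk samples, fewer cells of a type and less RNA per cell cannot be told apart.

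Only some members stood above the array median: Kit, Cpa3, Lyl1, Bcl11a and Spi1 in DN3a cells (5 of 10), Kit, Cpa3, Lyl1 and Spi1 in γδ T cells (4 of 10), and Kit and Spi1 in ISP cells (2 of 10). In DN3a and γδ T cells the group means of Lmo2, Hhex, Mef2c, Gata2 and Flt3 lay between 5.21 (Mef2c, Rptor-/- γδ) and 5.98 (Mef2c, WT DN3a), below the array medians, where a change in RNA is compressed in the signal. The plot of member values shows each array against its own median.

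**Figure D1:**
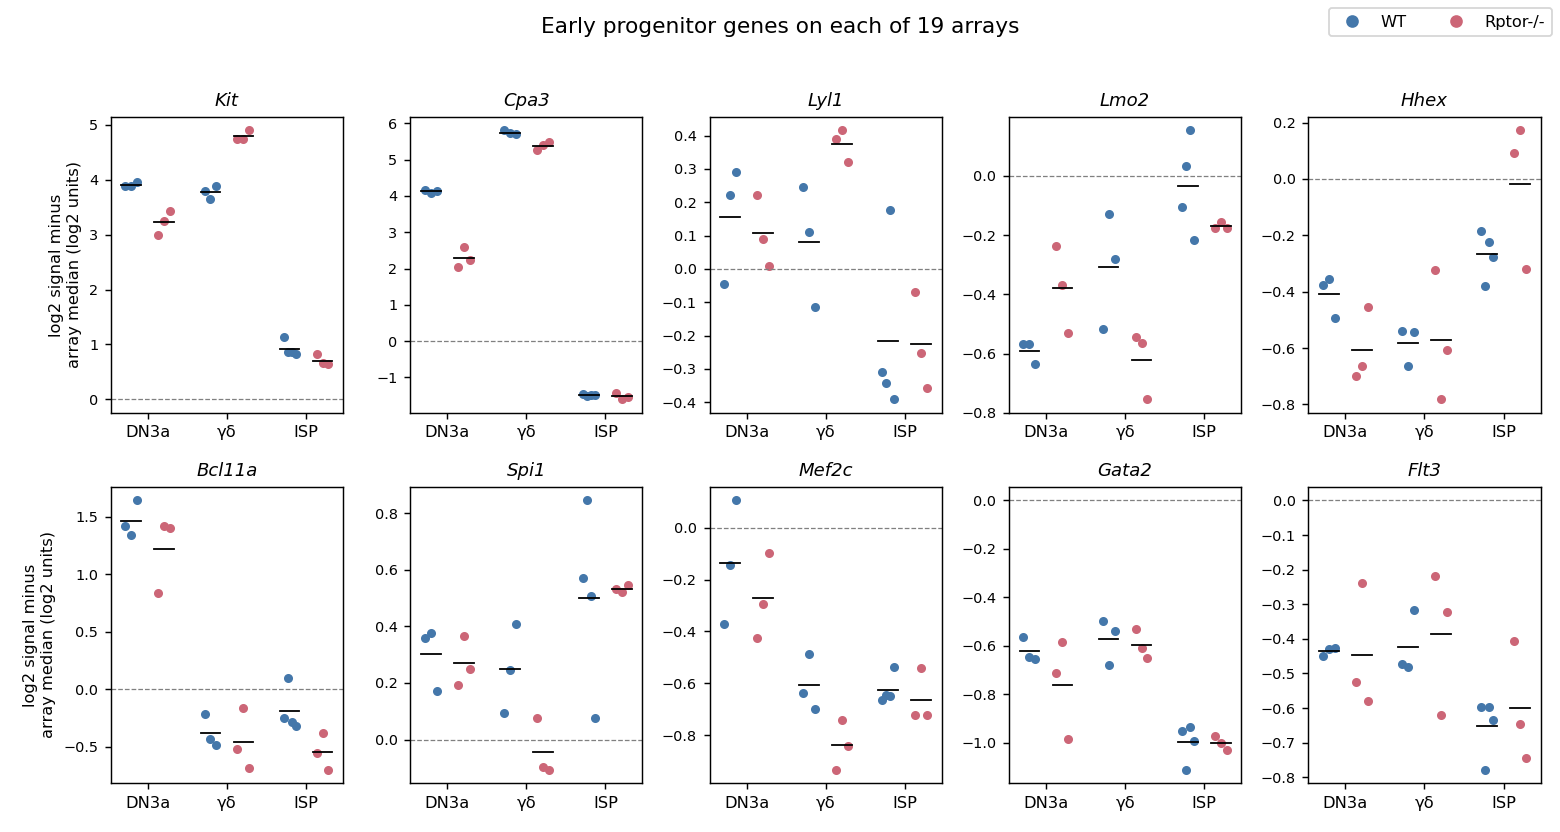
Log2 signal of the 10 early progenitor genes minus the median of the same array, for every array of DN3a, γδ and ISP cells; points are single arrays (WT blue, Rptor-/- red), short lines are group means and the dashed line is the array median. Kit and Cpa3 lie well above the median in DN3a and γδ T cells, and Cpa3 lies below it on all 7 ISP arrays.

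In DN3a cells Cpa3 and Kit were lower without Rptor, which is what chose the group. Cpa3 read 10.28, 10.20 and 10.22 on the WT arrays and 8.15, 8.62 and 8.31 on the Rptor-/- arrays. Every Rptor-/- array lay below every WT array, and the mean difference was -1.88 log2 units, or 27.2% of the WT level. Kit read 10.02, 9.998 and 10.06 in WT and 9.09, 9.29 and 9.51 in Rptor-/- cells, again without overlap, a difference of -0.73 or 60.3% of WT. The Rptor-/- arrays were also more scattered, with an SD of 0.21 for Kit against 0.03 in WT and of 0.24 for Cpa3 against 0.04.

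The other 8 members differed by -0.29 to 0.17 in DN3a cells, and the WT and Rptor-/- arrays of each overlapped. Bcl11a, a zinc finger factor of B-cell and early T-cell precursors, read 7.54, 7.46 and 7.74 in WT and 6.94, 7.45 and 7.48 in Rptor-/- cells; 1 Rptor-/- array was low and the other two lay within or at the edge of the WT range. Hhex differed by -0.24, Gata2 and Mef2c by -0.18 each, Lyl1 by -0.09, Spi1 by -0.08 and Flt3 by -0.05, while Lmo2 was 0.17 higher. Counting all 10, 2 were lower and 0 higher without overlap; over all genes 6.74% were lower and 10.4% higher without overlap, and nothing is read from this because the contrast picked the members.

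In γδ T cells, a comparison that did not choose the members, Kit rose and Cpa3 fell without Rptor. Kit read 9.88, 9.72 and 9.97 on the WT arrays and 10.82, 10.78 and 10.94 on the Rptor-/- arrays. All 3 Rptor-/- arrays lay above all WT arrays, with a difference of 0.99 ± 0.10 (SE), or 1.98-fold (limma adjusted p = 7.7e-06). Cpa3 read 11.90, 11.81 and 11.79 in WT and 11.33, 11.44 and 11.51 in Rptor-/- cells. Every Rptor-/- array lay below every WT array, with a difference of -0.40 ± 0.09 (SE), or 75.6% of WT (limma adjusted p = 0.0207).

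The Cpa3 call depended on the fit and on single arrays. With every γδ array kept, it did not pass with the γδ arrays alone (limma adjusted p = 0.0575), after centring each array on its median (-0.36, adjusted p = 0.0560) or with a replicate block (adjusted p = 0.0546). It also did not pass without Rptor-/- array 1 (-0.36, limma adjusted p = 0.0622), Rptor-/- array 2 (-0.41, adjusted p = 0.0649), WT array 1 (-0.37, adjusted p = 0.0848) or WT array 2 (-0.42, adjusted p = 0.0607), and the direction stayed negative in all 12 alternatives. Exact two-sided permutation tests of single genes cannot go below p = 0.1 with 3 against 3 arrays, and both genes reached it.

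Among the other members, 0 passed the limma test in γδ T cells. Lmo2, Spi1 and Mef2c had an unadjusted limma p under 0.05, as did 3607 of all 22180 genes. Lmo2 read 5.57, 5.95 and 5.80 in WT and 5.52, 5.48 and 5.28 in Rptor-/- cells, groups that did not overlap (-0.35 ± 0.11, SE, limma adjusted p = 0.0853); without WT array 1 it passed (-0.45, adjusted p = 0.0395). Spi1 read 6.18, 6.32 and 6.50 in WT and 6.14, 5.95 and 5.93 in Rptor-/- cells, also apart (-0.33 ± 0.13, SE, limma adjusted p = 0.204). Mef2c, at 5.46, 5.59 and 5.39 against 5.13, 5.31 and 5.19, did the same (-0.27 ± 0.11, SE, limma adjusted p = 0.201). Lyl1, the partner of Lmo2, had the opposite sign, at 6.34, 6.19 and 5.97 in WT against 6.46, 6.46 and 6.36 in Rptor-/- cells (0.26 ± 0.13, SE, limma adjusted p = 0.333). Bcl11a (-0.11), Gata2 (-0.06), Hhex (-0.02) and Flt3 (0.0013) had adjusted p of 0.766 to 0.997 and overlapping groups.

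Of the 10 members, then, 1 was called higher and 1 lower in γδ T cells, where 1.77% of all genes were called higher and 1.28% lower. Groups were apart for 4 members on the lower side (Cpa3, Lmo2, Spi1 and Mef2c) and 2 on the higher side (Kit and Lyl1), against 8.78% and 12.2% of all genes. The median difference of the 10 was -0.09 and that of all genes 0.0042.

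**Figure D2:**
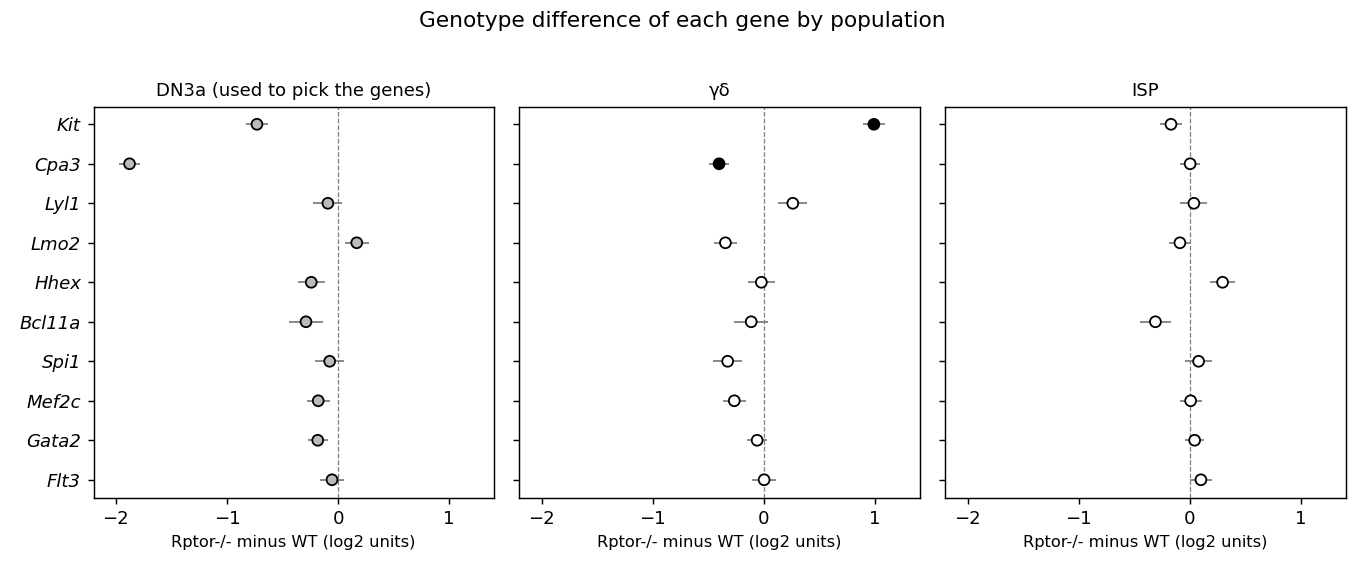
Rptor-/- minus WT difference in log2 units (horizontal position) of the 10 genes in DN3a, γδ and ISP cells, with bars for 1 SE of the fit; filled black points passed limma's adjusted p of 0.05, white points did not, and grey DN3a points were not tested. Kit lies at -0.73 in DN3a and 0.99 in γδ T cells, whereas Cpa3 lies below 0 in both.

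Across the 4 DN3a and γδ groups Kit and Cpa3 were ordered differently. Cpa3 rose in the order Rptor-/- DN3a (8.36 ± 0.24, SD, n = 3), WT DN3a (10.24 ± 0.04), Rptor-/- γδ (11.43 ± 0.09) and WT γδ (11.83 ± 0.06), and the arrays of neighbouring groups did not overlap. Kit ran from Rptor-/- DN3a (9.29 ± 0.21, SD, n = 3) through WT γδ (9.86 ± 0.12) and WT DN3a (10.02 ± 0.03) to Rptor-/- γδ (10.85 ± 0.08). The WT γδ and WT DN3a arrays of Kit did not overlap, but their difference of -0.17 ± 0.10 (SE) missed the threshold (limma adjusted p = 0.285). The plot of Kit against Cpa3 places the genotypes of each population in different directions.

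**Figure D3:**
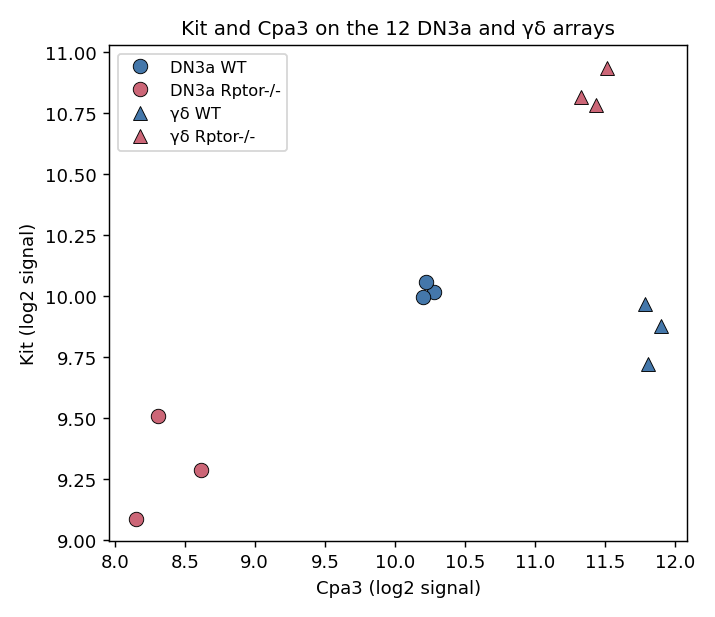
Kit (vertical axis) against Cpa3 (horizontal axis), both in log2 signal, on the 12 DN3a and γδ arrays, each point 1 array; circles are DN3a, triangles γδ, blue WT and red Rptor-/-. From WT to Rptor-/- the DN3a arrays lie lower on both axes, and the γδ arrays lie 0.99 higher in Kit and 0.40 lower in Cpa3.

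In ISP cells only Kit and Spi1 stood above the array median, with means of 4.66 and 4.34 against 3.83; Lmo2, at 3.74, was the nearest below. Kit read 4.93, 4.66, 4.66 and 4.66 in WT and 4.66, 4.51 and 4.51 in Rptor-/- cells, groups that met at 4.66 (-0.17 ± 0.09, SE, limma adjusted p = 0.335). Spi1 read 4.37, 4.64, 4.31 and 3.92 in WT and 4.37, 4.37 and 4.42 in Rptor-/- cells, and the ranges overlapped (0.08 ± 0.12, SE, limma adjusted p = 0.840). Of these 2 members, 0 passed limma's test, where 5.87% of all genes were called higher and 6.57% lower. At an unadjusted limma p under 0.05 there were 0 of the 2, beside 4862 of all 22180 genes. Exact two-sided permutation tests gave p = 0.229 for Kit and 0.743 for Spi1, with 0.0571 the smallest possible.

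The other 8 members lay below the ISP median and 0 of them passed. Hhex (0.29, limma adjusted p = 0.108) and Bcl11a (-0.31, adjusted p = 0.198) were the 2 with an unadjusted p under 0.05. Over all 22180 genes, 4862 had such an unadjusted limma p in ISP cells. Cpa3 lay between 2.25 and 2.41 on all 7 ISP arrays. Exactly repeated values occurred in 62.0% of genes among the 7 ISP arrays and in 0.80% among the 12 others, and in 8 of 10 members; Kit had 1 value on 4 arrays. Their part in the ISP differences was not tested.

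Between WT γδ and WT DN3a cells, Cpa3 was higher and Bcl11a and Mef2c lower in γδ T cells. The WT DN3a arrays also entered the contrast that picked Kit and Cpa3. Cpa3 was 3.02-fold higher in γδ T cells (1.59 ± 0.09, SE, limma adjusted p = 5.22e-11). Bcl11a read 5.88, 5.64 and 5.60 in γδ against 7.54, 7.46 and 7.74 in DN3a cells (-1.87 ± 0.15, SE, limma adjusted p = 7.3e-09). The γδ values lie below the array median, where signal is compressed, so no fold is given. Mef2c, a MADS-box factor of lymphoid and myeloid progenitors, read 5.46, 5.59 and 5.39 against 5.76, 5.97 and 6.20 (-0.50 ± 0.11, SE, limma adjusted p = 0.0011).

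Bcl11a and Mef2c each had a second probe set, whose means lay below the array median in both groups, where a difference may not be seen. For Bcl11a it read 4.22 and 4.21 in the same groups (0.01), and for Mef2c 4.93 and 4.96 (-0.03). With the mean of both probe sets Bcl11a differed by -0.93 and still passed, and Mef2c by -0.26, which missed the threshold (limma adjusted p = 0.0654).

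The other 7 members did not pass: Lmo2 differed by 0.25 (limma adjusted p = 0.0944), Hhex by -0.20, Kit by -0.17, Lyl1 by -0.10, Spi1 by -0.08, Gata2 by 0.02 and Flt3 by -0.02. Without γδ WT array 1 Lmo2 passed (0.35, limma adjusted p = 0.0260). In all, 1 of 10 was higher and 2 lower, against 12.7% and 12.3% of all genes.

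**Figure D4:**
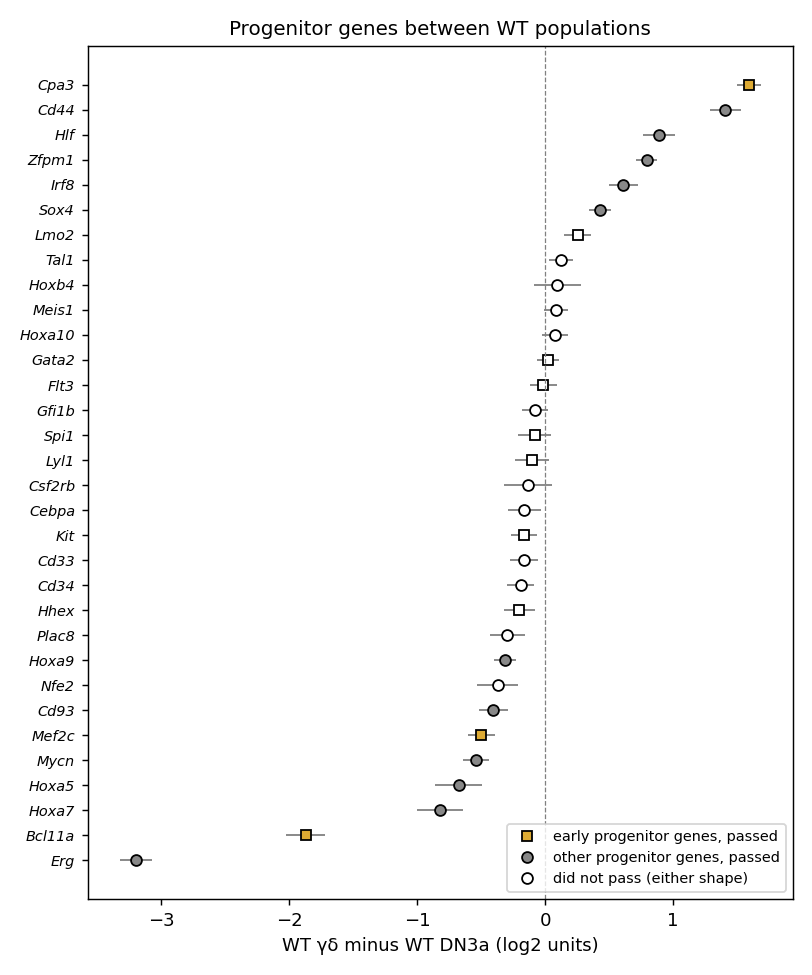
Difference WT γδ minus WT DN3a in log2 units (horizontal position), with bars for 1 SE, of the 10 genes (squares) and of 22 other progenitor and stem cell genes (circles); filled symbols passed limma's adjusted p of 0.05. Cpa3 lies at 1.59 and Bcl11a at -1.87, and Erg, at -3.20, lies farthest from 0.

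Of a list of 26 other progenitor and stem cell genes, 22 were measured. In γδ T cells 1 of these 22 was called higher and 0 lower without Rptor, beside 1.77% and 1.28% of all genes. Zfpm1, the GATA cofactor FOG-1, rose from 9.23 ± 0.11 to 9.74 ± 0.01 (SD, n = 3; 0.50 ± 0.08, SE, limma adjusted p = 0.0011). The other 21 did not pass, and the list's median was -0.06. In DN3a cells 2 of the 22 were higher and 4 lower without overlap, beside 10.4% and 6.74% of all genes; the homeobox gene Hoxa7 was 7.15 against 7.91 in WT, and Mycn 7.41 against 6.87. Between the WT populations 5 of the 22 were higher and 6 lower in γδ T cells, where 12.7% and 12.3% of all genes were. Among them were the adhesion receptor Cd44 (1.41) and the leukaemia-associated factor Hlf (0.89) on the higher side. On the lower side were the Ets factor Erg (-3.20) and Hoxa7 (-0.82). DN3a cells were sorted as CD44- and the γδ gate does not name CD44, so the Cd44 difference cannot be told apart from the sort.

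Signalling genes downstream of Kit and Flt3 were read in the same way. In γδ T cells 1 of 21 measured was called higher and 0 lower without Rptor, beside 1.77% and 1.28% of all genes. Socs1, an inhibitor of cytokine signalling, rose by 0.49 ± 0.10 (SE, limma adjusted p = 0.0131). Its groups were apart, and the list's median was 0.07. Between WT populations 5 were higher in γδ T cells, including the kinase Fyn (1.58) and the adaptor Grb2 (0.71), and 4 lower, including the adaptor Gab2 (-0.88) and Stat5a (-0.67), against the same 12.7% and 12.3% of all genes.

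Of 16 genes listed as partners or relatives of the Lyl1 and Lmo2 complex, 1 was called higher and 0 lower in Rptor-/- γδ T cells. Over all genes 1.77% were called higher and 1.28% lower. Lmo4, a relative of Lmo2, rose (0.38 ± 0.08, SE, limma adjusted p = 0.0124) and the other 15 did not pass. Between WT populations 2 were higher in γδ T cells, Gata3 (1.45) and Lmo4, and 5 lower, including Runx1 (-1.05) and Ssbp2 (-1.04), again beside 12.7% and 12.3% of all genes. T-cell commitment genes gave 1 of 17 higher and 0 lower in Rptor-/- γδ T cells, beside the same 1.77% and 1.28% of all genes. The gene was the Notch target Dtx1 (0.57 ± 0.10, SE, limma adjusted p = 0.0034). In DN3a cells 10 of these 17 were higher and 0 lower without overlap, where 10.4% and 6.74% of all genes were; Dtx1 was 10.70 against 9.33 in WT.

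Because mast cells express both Kit and Cpa3, mast cell and basophil markers were read beside them. Of 15 measured, 11 lay below the array median on all 12 DN3a and γδ arrays, including the 9 genes of granule proteases and IgE receptor chains (Mcpt1, Mcpt2, Mcpt4, Mcpt8, Cma1, Tpsb2, Tpsab1, Fcer1a and Ms4a2). The summed linear signal of the 15 was 1460 to 1492 in WT and 1433 to 1581 in Rptor-/- DN3a cells, and 1891 to 1921 in WT and 1813 to 1892 in Rptor-/- γδ T cells. Most of this sum came from Srgn, a granule proteoglycan that many blood cells express, which lay 3.94 to 4.47 above the array median on all 12 arrays. Slc18a2, a monoamine transporter, was above it on all γδ arrays and on 0 DN3a arrays. In γδ T cells 1 of the 15 was called higher and 0 lower, beside 1.77% and 1.28% of all genes. The gene was Hpgds, a prostaglandin synthase, at 5.93 ± 0.43 against 5.06 ± 0.01 (SD, n = 3, limma adjusted p = 0.0017). Both means lay below the γδ array medians, where signal is compressed. Only 1 Rptor-/- array and 0 WT arrays lay above their own median. Myeloid and B cell markers gave 0 of 16 and 0 of 11 calls in γδ T cells by limma, and dendritic cell markers 1 of 12, Batf3. At an unadjusted limma p under 0.05 there were 2 myeloid and 3 B cell markers, beside 3607 of all 22180 genes. In DN3a cells, where Kit and Cpa3 were lower, 5 of 12 dendritic cell markers were lower and 0 higher without overlap, where 6.74% and 10.4% of all genes were. They were Batf3 (6.13 against 6.46 in WT), H2-Eb1 (7.02 against 7.14), Itgax (5.12 against 5.41), Zbtb46 (5.45 against 5.61) and Xcr1 (5.02 against 5.15). The means of Itgax, Zbtb46 and Xcr1 lay below the DN3a array medians of 6.03 to 6.13 in both genotypes, where signal is compressed. Batf3 lay near those medians in Rptor-/- cells. The summed linear signal of the 12 was 1410 to 1621 in Rptor-/- and 1577 to 1653 in WT DN3a cells. Mast cell markers gave 2 higher and 0 lower there, myeloid markers 1 and 1, and B cell markers 1 and 0. Of 7 ISP and double-positive markers 4 were called lower and 0 higher in Rptor-/- γδ T cells, beside 1.28% and 1.77% of all genes. Cd8b1 led them (7.09 ± 0.61 against 8.81 ± 0.05, SD, n = 3). The part of all these markers in the Kit and Cpa3 differences was not tested.

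Genes were ranked by likeness to Kit and to Cpa3 over the 12 DN3a and γδ arrays, each gene centred on its own mean. Predicted genes, clone names, microRNAs, small nucleolar RNAs, olfactory and vomeronasal receptors and immune receptor segments were passed over. Among the remaining genes, those with profiles most like Kit's were Batf3, Rnf149, Cd63, Tyrobp and Dennd4a. Their root mean square differences from Kit were 0.25 to 0.27, where Kit's own spread was 0.57. Tyrobp, the signalling adaptor DAP12, differed by 1.07 with genotype in γδ T cells and by -0.24 in DN3a cells. Its DN3a means, 5.94 in WT and 5.69 in Rptor-/- cells, lay below the array medians, where signal is compressed. Batf3, an AP-1 factor, differed by 0.57 and -0.33. The neighbours of Kit and of Cpa3 were ranked on these same arrays, so genotype differences like theirs follow in part from the ranking.

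For Cpa3 they were Ccr9, Cd163l1, Rgs18, Il4ra and Actn2, at 0.46 to 0.60 where Cpa3's own spread was 1.35. Ccr9, a chemokine receptor of thymocytes, was 7.11 in WT and 6.46 in Rptor-/- DN3a cells, and 9.04 and 8.88 in γδ T cells. Cd163l1, a scavenger receptor of γδ T cells, was 8.31 and 7.80, and 10.79 and 10.41. With genotype in γδ T cells, Actn2 also differed downwards, by -0.52, but Rgs18 differed by 0.32 and Il4ra by 0.10. In DN3a cells Actn2 differed by -1.29, Rgs18 by -0.94 and Il4ra by -0.37. The Rptor-/- DN3a mean of Rgs18, 5.39, lay below the array medians, and that of Actn2, 6.10, lay near them. None of the 10 members was among the 5 genes nearest to Kit or Cpa3; the most alike members were Gata2 and Flt3, at 0.12, both below the array median.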

How the data were processed

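RNA of sorted cells (12 ng per array, per the labels' protocols) was amplified and hybridised to arrays. The deposited values are log2 signals per probe set, which the authors made with RMA in Partek 6.6, per the submitters' processing notes; the sets of arrays that shared a normalization are not given in the sources used here, and the medians fall into 2 sets. Such signals compress low levels, and the number of arrays limits precision. Groups and replicate numbers came from sample titles.

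Of 41345 probe sets, 23521 had 1 gene symbol, 1814 several and 16010 none in the probe annotation. For 23328 of those with 1 symbol the Entrez ID was found in a RefSeq table of GRCm38.p6, whose symbol was used. The 22180 genes were read from 1 probe set each (highest mean). No filter on low signal was used. Tests used lmFit and eBayes of limma 3.58.1 (R 4.3.3), with 6 group means over 19 arrays, Benjamini-Hochberg adjusted over all genes, threshold 0.05; the fit was tested on simulated data. Figures used matplotlib 3.10.9 in Python 3.11.15.

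The members and the 11 gene lists were chosen with earlier results of these data known. Named were the members, Rptor, list genes past the threshold (up to 3 per list and direction) and the 5 genes nearest to Kit and to Cpa3; single values of Cd8a, Hoxa7, Mycn, mast and dendritic cell markers and DN3a genotype values of list genes were chosen after their values were seen. Alternatives were fewer arrays in the fit, median centring, quantile normalization, the mean of all probe sets, a filter at the array median, a replicate block and leaving out each array.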

Additional observations from a re-analysis of the deposited data

Results flagged for a closer look

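In WT ISP cells, where 4 arrays allow a test for a single distant value, 7 of 11 genes tested had 1 array apart from the other 3. They were Kit on array 1 (4.93), Lyl1 on array 3 (3.98), Bcl11a on array 2 (3.90), Mef2c on array 4 (3.30), Gata2 on array 2 (2.69), Flt3 on array 2 (3.02) and Rptor on array 3 (6.34). Chance gives such a value in about 1 in 20 groups of values that do not repeat. Exactly repeated values occurred among the other WT arrays of Kit, Bcl11a, Mef2c, Gata2 and Flt3, so that rate does not hold for these genes.

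Kit moved in opposite directions with genotype in 2 populations, by 0.99 in γδ T cells and -0.73 in DN3a cells, with every Rptor-/- array above the WT arrays in the first and below them in the second. The difference between the populations was not tested, because the DN3a contrast chose the gene.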

How the results depend on the processing

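Of 10 members, 2 passed in γδ T cells. Only 1 did when the fit held the γδ arrays alone, when each array was centred on its median and with the replicate block, and 1 to 2 when each array was left out. Kit passed in all 12 alternatives (0.92 to 1.13, limma adjusted p 7.61e-07 to 0.00157), and Cpa3 in 5 of 12 (-0.45 to -0.36, p 0.0110 to 0.0848; 0.0546 with the block). Of the 2 members above the array median in ISP cells, the only ones counted there, 0 passed in any of 13 alternatives, and the WT comparison kept 2 to 4 calls. Over all genes 393 were higher and 284 lower in γδ T cells; there were 207 and 138 with the γδ arrays alone and 540 and 181 after centring, which moved the median from 0.0042 to 0.05. In γδ T cells leaving out Rptor-/- array 1 raised the counts to 419 and 363. Without Rptor-/- array 2 they were 227 and 136, and without Rptor-/- array 3 259 and 241. Leaving out WT array 1 gave 272 and 194, WT array 2 gave 210 and 123, and WT array 3 gave 263 and 171. In ISP cells 1302 and 1457 became 564 and 749 with the ISP arrays alone. Same-numbered arrays of the 2 genotypes had correlated deviations of -0.10 to -0.0030 in γδ T cells, -0.01 to 0.10 in ISP cells and 0.01 to 0.24 in DN3a cells, and those of WT γδ and WT DN3a 0.03 to 0.10. In none was every pair over 0.1, so the numbers were not taken as pairs. Arrays that correlated best with their own number were 0 of 3, 1 of 3, 2 of 3 and 3 of 3 in that order, the last a hint from the data. Members below the array median are limited by signal near background.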

Other observations

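In ISP cells 5.87% of all genes were higher and 6.57% lower without Rptor, and the counts that follow stand beside these shares. Among the other progenitor genes Plac8 fell from 7.57 ± 0.37 (SD, n = 4) to 5.99 ± 0.03 (SD, n = 3), without overlap (limma adjusted p = 1.66e-07), and Csf2rb rose by 0.56 with overlapping groups (limma adjusted p = 0.0400); the other 20 of 22 did not pass. Of 21 Kit and Flt3 signalling genes 3 rose and 1 fell: the kinase Jak2 rose by 0.65 ± 0.10 (SE, limma adjusted p = 0.000189), Stat5b by 0.39 and the ubiquitin ligase Cbl by 0.30, and the PI3-kinase subunit Pik3cd fell by 0.52. Of 16 genes listed as partners or relatives of the Lyl1 and Lmo2 complex 2 rose, Ssbp2 by 0.33 and the corepressor Cbfa2t3 by 0.37. T-cell commitment genes gave 9 of 17 higher and 1 lower, with a median of 0.31 against -0.0039 over all genes.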
